A study of Mus musculus with 30 samples.

Results

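Mef2a, Mef2b, Mef2c and Mef2d encode the MEF2 transcription factors, and they were taken from the deposited tables by gene name: 4 of 54393 genes and 153 of 661327 alternative splicing events. Polyadenylated RNA had been sequenced from CGR8 mouse embryonic stem cells (ESC), from embryoid bodies at day 8 that had received retinoic acid (EB8), and from neurons after 7 days in vitro (DIV7), labelled glutamatergic. At each stage 4 edited lines and the unedited parent were sampled with 2 libraries each, 30 libraries in 15 groups. Puf60_mEx5_HOM cells are labelled as lacking exon 5 of the splicing factor gene Puf60, Puf60_pEx5_HOM and Puf60_pEx5_HET cells include that exon constitutively from both alleles or from a single allele, Rbm38KO cells carry a deletion in the RNA-binding protein gene Rbm38, and WT is parental CGR8. The series speaks of independent clones without a label that ties a library to its clone, and p-values therefore cover the spread of these libraries alone.

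MEF2 proteins bind A/T-rich sites through an N-terminal MADS box and MEF2 domain, and were named for their role in muscle. In neurons, calcium entry releases them from class IIa histone deacetylases and lets calcineurin dephosphorylate them, which switches on activity-dependent genes. Vertebrate Mef2 transcripts vary at 3 places: a choice between α exons just after the MEF2 domain, a β microexon in the activation domain that is known from muscle and brain transcripts, and a γ stretch that is kept or skipped by the choice of 3′ splice site. Mef2c is the member best known for cortical neuron development, whereas the mouse Mef2b gene is known mainly for its role in B cells.

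The exons that carry the results below are shown from GENCODE vM21 transcripts on GRCm38 (mm10), 5′ to 3′ on the gene's strand, with the alternative exon in capitals and 15 bases of the neighbouring exons in lower case. The β exons come first, because those of Mef2a and Mef2d had the largest changes between stages among the member events called. They lie at chr7:67244521-67244544 on the minus strand (Mef2a), chr13:83654598-83654621 on the plus strand (Mef2c) and chr3:88161781-88161801 on the plus strand (Mef2d), and all are coding.
Mef2a β exon, 24 nt: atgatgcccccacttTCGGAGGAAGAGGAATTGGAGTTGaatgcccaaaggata
Mef2c β exon, 24 nt: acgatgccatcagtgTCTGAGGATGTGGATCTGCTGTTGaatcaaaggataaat
Mef2d β exon, 21 nt: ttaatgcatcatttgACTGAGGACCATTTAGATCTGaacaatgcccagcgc
The Mef2a and Mef2c exons matched at 18 of 25 aligned positions (72.0%), and each matched the Mef2d exon at 14 of 25 (56.0%). All have a length that is a multiple of 3, so inclusion keeps the reading frame.

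The upstream α exon of Mef2a, the more used of its α exons, is shown beside the α exon that Mef2d uses. It is at chr7:67268269-67268400 on the minus strand, and the Mef2d exon is at chr3:88158034-88158171 on the plus strand.
Mef2a upstream α exon, 132 nt: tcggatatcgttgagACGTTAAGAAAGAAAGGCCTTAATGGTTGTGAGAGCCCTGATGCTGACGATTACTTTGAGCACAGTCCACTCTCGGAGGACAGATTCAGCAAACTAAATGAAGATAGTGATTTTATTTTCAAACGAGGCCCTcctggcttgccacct
Mef2d α exon, 138 nt: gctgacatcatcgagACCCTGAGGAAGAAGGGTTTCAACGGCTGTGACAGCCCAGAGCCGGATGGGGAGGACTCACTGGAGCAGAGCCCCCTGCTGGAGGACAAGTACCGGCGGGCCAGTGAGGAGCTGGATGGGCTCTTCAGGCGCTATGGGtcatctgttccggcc
These exons matched at 59.7% of aligned positions. The γ stretch of Mef2c, at chr13:83662307-83662402 on the plus strand, is coding in 7 transcripts.
Mef2c γ stretch, 96 nt: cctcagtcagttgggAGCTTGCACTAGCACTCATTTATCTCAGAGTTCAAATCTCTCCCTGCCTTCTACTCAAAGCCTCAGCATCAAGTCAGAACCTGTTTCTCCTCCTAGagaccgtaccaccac

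The libraries held 23204150 to 38571969 exon-exon junction reads, which were summed per gene and scaled by library as CPM, normalised read counts that are not divided by gene length, as the expression measure. The 51-nt exon 5 of Puf60 was spliced in at 7.49 to 13% in Puf60_mEx5_HOM, 93.2 to 99.0% in Puf60_pEx5_HOM and 49.2 to 64.9% in Puf60_pEx5_HET libraries, against 20.7 to 44.0% in WT libraries. Inclusion was thus lowest in the libraries labelled Puf60_mEx5_HOM but above 0 in all 6 of them. Each difference of that line from WT is given at this measured inclusion, and why reads of the exon remain was not tested. Rbm38 had 0 CPM in all 6 Rbm38KO libraries, against 8.45 to 86.6 CPM in WT libraries. WT means of Rbm38 were 84.6 ± 2.8 CPM in ESC, 39.2 ± 3.0 in EB8 and 9.71 ± 1.8 in DIV7 (SD, n = 2 each). Rbm38KO thus differed least from WT in Rbm38 RNA at DIV7, where the gene was already low in WT. Results of that line at DIV7 are given with this limit. Summed CPM of 10 neuronal markers was 263 to 391 in ESC, 1010 to 2620 in EB8 and 4630 to 5550 in DIV7 libraries. At DIV7 8 glutamatergic markers summed to 460 to 727 CPM and 5 markers of GABAergic and glycinergic neurons to 821 to 1160 CPM, so the labelled type was not the sole neuron type with marker RNA. Astrocyte markers summed to 467 to 1240 CPM there, and 7 skeletal muscle markers to 4.18 to 7.94 CPM. The 8 glutamatergic markers include the glutamate receptor genes Gria2, Grin1 and Grin2b. In WT DIV7 Grin1 averaged 330 ± 52 CPM and the transporter gene Slc17a6 40.7 ± 21 CPM (SD, n = 2 each). Much of the glutamatergic sum is thus receptor RNA, and it does not measure that neuron type alone.

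In WT cells the 4 genes followed different courses through differentiation. Mef2a and Mef2c were higher at each later stage, Mef2b was highest in ESC, and Mef2d was lowest in EB8. Calls needed an adjusted p under 0.05 (limma, Benjamini-Hochberg) and a change of at least 2-fold on the log2(CPM + 1) scale, where changes of low genes come out too small. In EB8 against ESC 1 of the 4 members was called, where 39.9% of the 13929 genes tested were, and in DIV7 against EB8 1 of 4, where 30.2% of genes were. Both shares lie near or below those of all genes. At any fold, 4 and 3 of the 4 members had an adjusted p under 0.05 at these steps, where 78.6% and 71.6% of all genes did. In bulk RNA, fewer cells of a type and less RNA per cell cannot be told apart.

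Mef2a had 9.20 and 9.66 CPM in WT ESC, 17.2 and 18.1 CPM in WT EB8, and 26.8 and 29.8 CPM in WT DIV7 libraries. Over all 5 lines the stages did not overlap, at 6.84 to 9.73, 15.7 to 20.6 and 23.9 to 32.5 CPM. The log2 difference was 0.84 ± 0.12 (SE, n = 2 a group, limma adjusted p = 1.3e-06) in EB8 against ESC and 0.65 ± 0.12 (limma adjusted p = 4.32e-05) in DIV7 against EB8, both short of 2-fold. Scaling by total reads gave 1.29 in EB8 against ESC, a called rise, but that scaling moved the median of all genes by 0.42.

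Mef2c had 0.302 and 0.385 CPM in WT ESC, 0.987 and 1.04 CPM in WT EB8, and 3.93 and 6.20 CPM in WT DIV7 libraries. The ESC values rest on 2 to 23 reads per library over all lines, and the DIV7 values on 111 to 267 reads. Mef2c rose in WT DIV7 cells relative to WT EB8 cells by 1.57 ± 0.20 on the log2 scale (SE, n = 2 a group, limma adjusted p = 4.5e-07). Over all lines the DIV7 libraries (3.93 to 9.37 CPM) stood above the EB8 libraries (0.651 to 2.74 CPM), whereas EB8 and ESC libraries (0.065 to 0.720 CPM) overlapped at their edges. In EB8 against ESC the WT difference was 0.58 ± 0.20 (limma adjusted p = 0.012), short of 2-fold, and 0.25 with limma adjusted p = 0.307 under quantile scaling.

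Mef2b had 10.9 and 16.2 CPM in WT ESC, 3.27 and 3.90 CPM in WT EB8, and 3.75 and 3.57 CPM in WT DIV7 libraries. It fell by 1.65 on the log2 scale in WT EB8 relative to WT ESC (SE 0.34, n = 2 a group, limma adjusted p = 0.000203), and the EB8 and DIV7 libraries of all lines overlapped at 2.44 to 6.34 and 1.94 to 4.66 CPM. Mef2b, at chr8:70139711-70167488, overlaps the gene Borcs8 on the same strand, so a junction that both genes use could have been counted for either.

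Mef2d had 36.0 and 36.6 CPM in WT ESC, 23.01 and 26.85 CPM in WT EB8, and 32.1 and 34.7 CPM in WT DIV7 libraries. Over all lines the EB8 libraries (19.9 to 31.7 CPM) lay below every ESC library (35 to 44 CPM) and every DIV7 library (32.1 to 55.2 CPM), and ESC and DIV7 overlapped. The WT log2 difference was -0.53 ± 0.13 (SE, n = 2 a group, limma adjusted p = 0.000772) in EB8 against ESC and 0.41 ± 0.13 (limma adjusted p = 0.00687) in DIV7 against EB8. Scaling by total reads left -0.06 (limma adjusted p = 0.682) for the first and 0.26 (limma adjusted p = 0.0676) for the second.

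Levels between genes can be compared only per length, as RPKM. In the authors' deposited table WT ESC had 14.2 RPKM for Mef2d, 6.47 for Mef2b, 6.04 for Mef2a and 0.19 for Mef2c. In WT EB8 the authors' deposited table lists 10.67 RPKM for Mef2a, 10.39 for Mef2d, 1.54 for Mef2b and 0.79 for Mef2c. In WT DIV7 the authors' deposited table lists 15.98 RPKM for Mef2a, 15.47 for Mef2d, 2.91 for Mef2c and 1.52 for Mef2b. The order of these group values thus differed between stages, and they carry no spread.

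**Figure D1:**
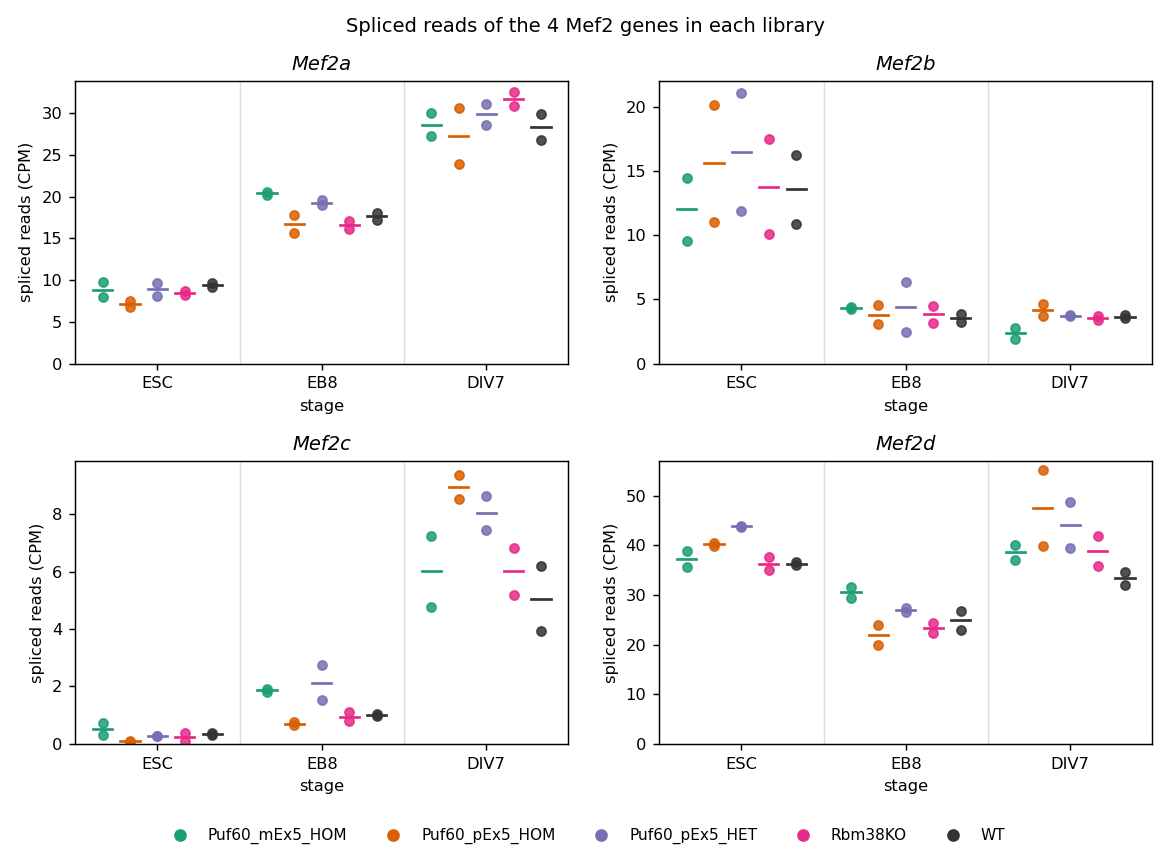
Spliced reads (CPM, linear axis from 0) of each Mef2 gene by stage, with 1 point per library, a bar at the mean of each group's 2 libraries and colours for the lines. Mef2a separates into 3 stages at 6.84 to 9.73, 15.7 to 20.6 and 23.9 to 32.5 CPM, Mef2b is high in ESC, Mef2c in DIV7, and Mef2d is lowest in EB8.

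The β exons of Mef2a and Mef2d were almost wholly skipped in stem cells and mostly included in neurons, in every line. Percent spliced in (PSI) is the share of an event's junction reads that include the alternative sequence, and a call needed at least 10 PSI points as well as an adjusted p under 0.05 (weighted limma). Of the member events, 3 of 14 tested were called in WT EB8 against WT ESC and 3 of 15 in WT DIV7 against WT EB8, where 12.5% and 15.8% of all events tested were called. The β exons of Mef2a and Mef2d made up 2 of the 3 calls at each step. With 1 library left out, the first count was 1 without WT_ESC A, when only the Mef2d β exon was called, and 2 without WT_ESC B, WT_EB8 A or WT_EB8 B. The second was 2 without WT_EB8 A, WT_EB8 B or WT_DIV7 B.

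The Mef2a β exon had a PSI of 0 and 2.29% in WT ESC, 25.8 and 31.1% in WT EB8, and 74.0 and 89.4% in WT DIV7 libraries. Over the 10 libraries of a stage it spanned 0 to 7.17%, 22.6 to 43.1% and 74.0 to 95.2%, with 34 to 66, 86 to 132 and 140 to 177 reads. Inclusion rose in WT EB8 relative to WT ESC by 27.3 points (weighted limma adjusted p = 0.01) and in WT DIV7 relative to WT EB8 by 53.2 points (weighted limma adjusted p = 2.11e-08). With 1 WT ESC library left out the first call was lost, at 26.2 points without WT_ESC A (adjusted p = 0.101, limma) and 28.5 points without WT_ESC B (adjusted p = 0.099, limma).

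The Mef2d β exon had a PSI of 1.15 and 0.69% in WT ESC, 39.3 and 35.9% in WT EB8, and 71.4 and 83.7% in WT DIV7 libraries. It spanned 0 to 3.47%, 24.0 to 57.6% and 71.4 to 92.3% over all lines, on 78 to 227 reads per library. It rose in WT EB8 relative to WT ESC by 36.7 points (weighted limma adjusted p = 4.92e-06) and in WT DIV7 relative to WT EB8 by 40 points (weighted limma adjusted p = 3.41e-06). The 3 stages overlapped in neither exon.

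The Mef2c β exon could be read only in neurons, since ESC libraries held at most 3 and EB8 libraries at most 7 reads of the event. At DIV7 its PSI was 75.5 and 93.9% in WT libraries and 68.8 to 93.9% over all lines, on 12 to 33 reads. In WT DIV7 libraries the A library had the lower inclusion of all 3 β exons.

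Gains of this kind were common among microexons, defined here as cassette exons of 3 to 27 nt. Of the microexons tested, 203 of 394 (51.5%) were called higher in WT EB8 than in WT ESC and 257 of 480 (53.5%) higher in WT DIV7 than in WT EB8, against 11.7% and 14% of longer cassette exons. As a description over the 15 group means, the cassette exons most like the Mef2a β exon were in Arhgef7 (Pearson r = 0.998), Srcap (0.997), Vps13c, Shf and Ergic3 (0.996 each). Those most like the Mef2d β exon were in Faim, Sh3glb1, Slc38a10 and Smarcc2 (0.998 each) and Ckap5 (0.997). The 15 groups share stages and libraries, so many exons that follow the stage reach a similar r.

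**Figure D2:**
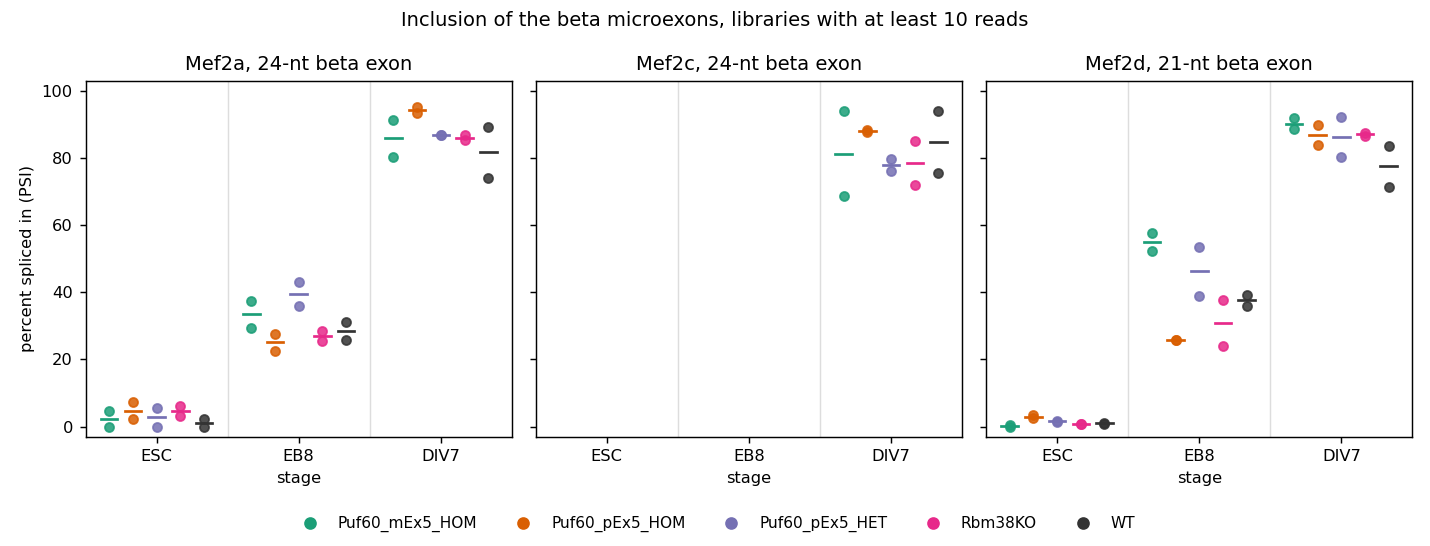
Percent spliced in (linear axis) of the β exons of Mef2a, Mef2c and Mef2d by stage, with 1 point per library that had at least 10 reads, a bar at each group's mean and colours for the lines. Inclusion in Mef2a and Mef2d is at most 7.17% in ESC, intermediate in EB8 and at least 71.4% in DIV7, and Mef2c has readable libraries only in DIV7.

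The α exons of Mef2a differed little between WT stages, with the upstream exon the more used. The upstream exon had a PSI of 65.8 and 67.2% in WT ESC, 67.0 and 69.5% in WT EB8, and 67.3 and 76.6% in WT DIV7 libraries. The downstream exon had 29.7 and 37.8%, 36.6 and 29.6%, and 31.8 and 28.2% in the same groups. Differences between WT stages were 3.71 points or less in size, all smaller than the call threshold, with adjusted p of 0.571 to 0.943 (limma).

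Mef2d and Mef2c mainly used a single α exon. The Mef2d α exon had a PSI of 84.0 to 95.7% in all 30 libraries, and an 80-nt row just downstream of it had 1.95 to 4.73% in ESC, 0.41 to 3.19% in EB8 and 0 to 1.15% in DIV7 libraries. In Mef2c a 60-nt row of the upstream α region had 74.8 to 100% in the 9 readable EB8 libraries and 92.8 to 100% at DIV7, and at DIV7 the 138-nt downstream alternative had 0 to 5.31%, in 10 libraries.

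The γ stretch of Mef2c was used in part of the transcripts at DIV7. The longer form that keeps it made up 37.5 and 40% of reads in WT libraries, and the next shorter form 56.2 and 60%, on 15 and 16 reads. Over all lines the longer form spanned 10 to 63.2% on 10 to 30 reads per library, a spread that these depths could not resolve.

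Mef2b and Mef2d had further events that changed between stages. A 52-nt Mef2b exon at chr8:70166614-70166665 is an exon of its own in no GENCODE vM21 transcript, but lies within a longer coding exon of 3 transcripts. Its length is no multiple of 3. The 52-nt exon had a PSI of 69.5 and 74.1% in WT ESC, 93.5 and 100% in WT EB8, and 100 and 88.9% in WT DIV7 libraries. It rose in WT EB8 relative to WT ESC by 25 points (weighted limma adjusted p = 0.0204), with a value of 22.7 points without WT_ESC A (adjusted p = 0.0603), 28.2 without WT_EB8 A (adjusted p = 0.0536) and 21.7 without WT_EB8 B (adjusted p = 0.173), none of which kept the call (limma). A 150-nt exon near the start of Mef2d, at chr3:88143350-88143499 and in no GENCODE vM21 transcript, had 2.79 and 2.06% in WT ESC, 9.74 and 9.77% in WT EB8, and 18.6 and 24.5% in WT DIV7 libraries. It rose in WT DIV7 relative to WT EB8 by 11.8 points (weighted limma adjusted p = 0.0333), and the call was lost with equal weights (adjusted p = 0.0582) and without WT_EB8 A, WT_EB8 B or WT_DIV7 B (adjusted p = 0.132 to 0.204, limma).

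Of 153 rows, 139 had at least 10 reads in a library and 23 had a mean PSI of 5 to 95 and entered the fit: 6 in Mef2a, 4 in Mef2b, 6 in Mef2c and 7 in Mef2d. Among 34 other cassette rows with a readable library, 25 were at 90% or more and 7 at 10% or less in every readable library. The other 2 were a 135-nt Mef2b row at 88.2 to 100% and the 60-nt Mef2c row named above. Some events in the fit spread widely between libraries: a 120-nt Mef2b intron was retained at 3.45 to 53.9% in EB8 on 10 to 24 reads, and 1 of 2 alternative 3′ splice sites of a Mef2c exon had 15.1 to 60.8% in the 9 readable DIV7 libraries. A 287-nt intron of Mef2d, at chr3:88168345-88168631, was retained at 51.2 to 73.3% in all 30 libraries. An exon of 1 GENCODE vM21 transcript covers this interval without coding for all of it, so unspliced reads there can come from that exon.

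Whether Puf60 exon 5 or Rbm38 bears on the Mef2 genes was asked by setting each edited line against WT at the same stage. No member was called in any of the 12 comparisons. The share of all genes called at ESC, EB8 and DIV7 was 0.079, 1.64 and 0.402% in Puf60_mEx5_HOM, 2.46, 1.66 and 2.55% in Puf60_pEx5_HOM, 0.0359, 0.115 and 0.574% in Puf60_pEx5_HET, and 0.0359, 0.0431 and 0.302% in Rbm38KO. At any fold, 3 differences had an adjusted p under 0.05, all in Puf60_pEx5_HOM, where 17.6% of genes at ESC and 15.8% at DIV7 did.

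Mef2c had 9.37 and 8.54 CPM in Puf60_pEx5_HOM DIV7 libraries, against 3.93 and 6.20 CPM in WT DIV7 libraries, without overlap. The log2 difference was 0.74 ± 0.20 (SE, n = 2 a group, limma adjusted p = 0.0165), short of 2-fold. It was 0.47 (limma adjusted p = 0.273) without WT_DIV7 A, 0.68 (limma adjusted p = 0.0803) without Puf60_pEx5_HOM_DIV7 A, 0.80 (limma adjusted p = 0.0552) without Puf60_pEx5_HOM_DIV7 B, and 1.01 (limma adjusted p = 0.00514), past 2-fold, without WT_DIV7 B. Puf60_pEx5_HET DIV7 libraries had 8.63 and 7.44 CPM of Mef2c, with a difference from WT of 0.60 ± 0.20 (limma adjusted p = 0.181).

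Mef2d had 39.95 and 55.20 CPM in Puf60_pEx5_HOM DIV7 libraries, against 32.1 and 34.7 CPM in WT DIV7 libraries. The log2 difference was 0.48 ± 0.13 (SE, n = 2 a group, limma adjusted p = 0.0148), short of 2-fold, and 0.25 (limma adjusted p = 0.266) without Puf60_pEx5_HOM_DIV7 B and 0.43 (limma adjusted p = 0.133) without WT_DIV7 A. The authors' deposited table lists log2 fold changes of 0.4875 (FDR 0.02604) for Mef2d and 0.7145 (FDR 0.1131) for Mef2c in this comparison.

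Cell type markers differed between the same DIV7 libraries. Summed CPM in Puf60_pEx5_HOM against WT was 467 to 757 against 1190 to 1240 for 8 astrocyte markers, 169 to 246 against 65.3 to 67.2 for 8 pluripotency markers, and 646 to 676 against 460 to 595 for 8 glutamatergic markers, receptor genes included. It was 1020 in both Puf60_pEx5_HOM libraries against 838 to 976 in WT for 5 GABAergic and glycinergic markers, and 3.09 to 9.21 against 20.5 to 50.3 for 6 endoderm markers. The 10 neuronal markers overlapped, at 4810 to 5290 against 4630 to 5350. No marker of these 6 lists was at 0 in both libraries of either group. Their part in the Mef2c and Mef2d differences was not tested.

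The gain of both genes between EB8 and DIV7 was larger in Puf60_pEx5_HOM than in WT cells at an adjusted p under 0.05. The difference of the log2 steps was 0.99 ± 0.29 (SE, limma adjusted p = 0.0306) for Mef2c and 0.66 ± 0.18 (SE, limma adjusted p = 0.024) for Mef2d, both short of 2-fold, where 11% of all genes had such an adjusted p and 4.06% were called. No member was called for any line at either step, where 4.24% of genes were called for Puf60_pEx5_HOM at the first step, 1.37 and 0.854% for Puf60_mEx5_HOM, 0.0144 and 0.0359% for Puf60_pEx5_HET, and 0.00718 and 0.0359% for Rbm38KO at the first and second. With 1 library left out, the Mef2c adjusted p stayed under 0.05 only without WT_DIV7 B, and that of Mef2d was 0.103 to 0.134 (limma) without Puf60_pEx5_HOM_EB8 A, WT_EB8 B, WT_DIV7 A or Puf60_pEx5_HOM_DIV7 B. Mef2c in Puf60_pEx5_HOM cells averaged 0.0838 ± 0.027 CPM in ESC, 0.699 ± 0.067 CPM in EB8 and 8.96 ± 0.59 CPM in DIV7 (SD, n = 2 each). At ESC the authors' deposited table lists a log2 fold change of -1.741 (FDR 0.01887) for Mef2c in Puf60_pEx5_HOM against WT, where these libraries held few reads and the limma difference was -0.31.

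Mef2a averaged 7.17 ± 0.47 CPM in Puf60_pEx5_HOM ESC libraries and 9.43 ± 0.32 CPM in WT ESC libraries (SD, n = 2 each), a log2 difference of -0.35 (limma adjusted p = 0.0433). Its adjusted p was 0.122 under quantile scaling and 0.0871 to 0.248 with any of the 4 libraries left out (limma). Mef2b had no adjusted p under 0.05 in any line, and its differences from WT ran between -0.49 and 0.24 on the log2 scale with an SE of 0.34.

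**Figure D3:**
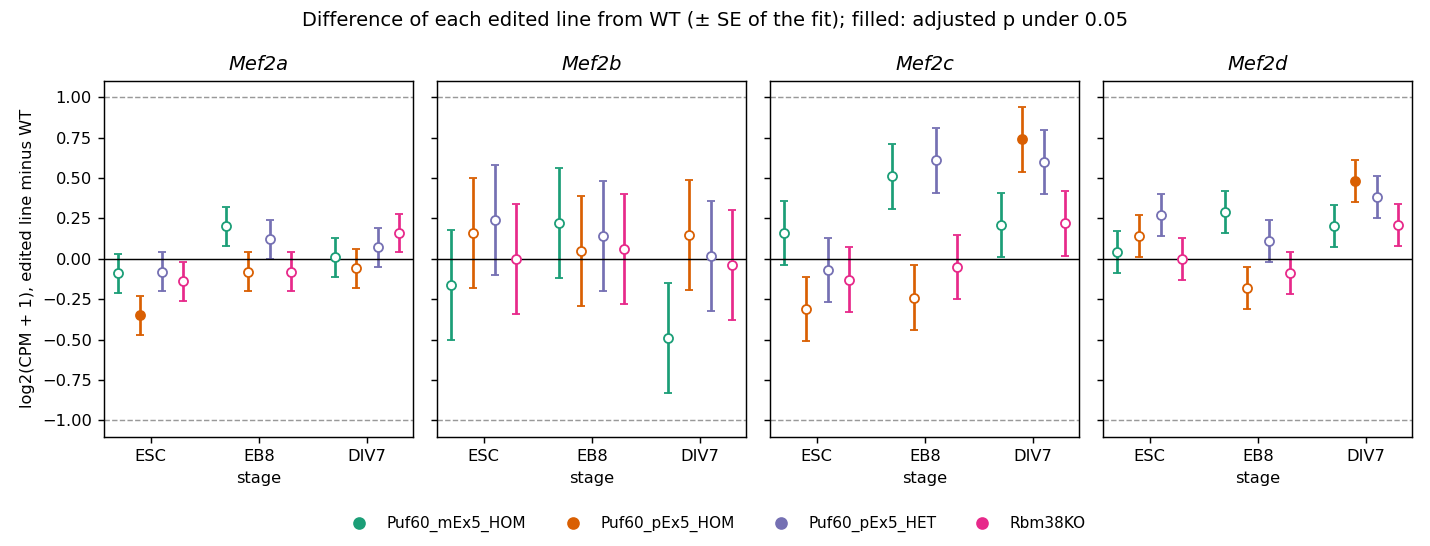
Difference of each edited line from WT at the same stage in log2(CPM + 1), with 1 panel per gene, error bars of ± SE from the limma fit, filled points for an adjusted p under 0.05 and dashed lines at 2-fold. The 3 filled points are Puf60_pEx5_HOM, at -0.35 for Mef2a in ESC and 0.74 for Mef2c and 0.48 for Mef2d in DIV7, and no point reaches a dashed line.

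Among exons, 2 member events were called in edited lines against WT, both in Puf60_pEx5_HOM: 1 of 16 tested at ESC and 1 of 20 tested at DIV7, where 1.57% and 1.61% of all events were called. In the other comparisons no member event was called, where the share of all events was 2.52% for Puf60_pEx5_HOM at EB8, 0.0189, 0.753 and 0.142% for Puf60_mEx5_HOM at ESC, EB8 and DIV7, 0.0154, 0.0169 and 0.0141% for Puf60_pEx5_HET, and 0.00762, 0 and 0% for Rbm38KO. No step between stages differed between a line and WT for a member event, where 0.0129 and 0.33% of events were called for Puf60_pEx5_HOM at the first and second step, 0 and 0.0196% for Puf60_mEx5_HOM, 0 and 0% for Puf60_pEx5_HET, and 0.00426 and 0% for Rbm38KO.

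The Mef2a β exon had a PSI of 95.2 and 93.5% in Puf60_pEx5_HOM DIV7 libraries, against 74.0 and 89.4% in WT DIV7 libraries. It rose by 12.6 points (weighted limma adjusted p = 0.0291), but the low WT_DIV7 A library decided the size: without it the difference was 4.96 points (adjusted p = 0.602, limma), and without WT_DIV7 B 20.3 points (adjusted p = 0.00346, limma). The call was also lost with equal weights (adjusted p = 0.283), with no filter on mean PSI (adjusted p = 0.108), and without either Puf60_pEx5_HOM library (adjusted p = 0.155 and 0.206, limma). The other edited lines had 80.5 to 91.4% at DIV7.

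The Mef2d β exon had 52.5 and 57.6% in Puf60_mEx5_HOM EB8 libraries and 25.8 and 25.9% in Puf60_pEx5_HOM EB8 libraries, against 39.3 and 35.9% in WT EB8 libraries. The 3 groups did not overlap, yet the differences from WT of 17.4 points (weighted limma adjusted p = 0.182) and -11.7 points (weighted limma adjusted p = 0.35) missed the threshold. Summed CPM of the 10 neuronal markers lay in the same order in these EB8 libraries, at 2250 to 2620 in Puf60_mEx5_HOM and 1010 to 1160 in Puf60_pEx5_HOM, against 1590 to 1780 in WT. So did the 8 glutamatergic markers, receptor genes included, at 81.4 to 84.8 and 20.0 to 22.4, against 34.1 to 42.9 in WT, and the 5 GABAergic and glycinergic markers, at 254 to 260 and 40.4 to 57.5, against 100 to 125 in WT. The part of these in the exon's values was not tested. In the authors' deposited table this exon is marked as significant for both lines at EB8 and at DIV7. It is also marked between these lines at EB8, where 2.12% of events are. At DIV7 the means of both lines were above WT, at 90.2 ± 2.4% in Puf60_mEx5_HOM and 86.9 ± 4.3% in Puf60_pEx5_HOM, against 77.6 ± 8.7% in WT. Puf60_pEx5_HET averaged 86.3 ± 8.4% and Rbm38KO 87.1 ± 0.74% there (SD, n = 2 each), and none was called. In the Puf60_pEx5_HOM column at EB8 the authors' deposited table marks 13% of all events, against 0.867 to 1.58% in the 11 other columns of a line against WT.

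A 61-nt Mef2b exon at chr8:70159389-70159449, in no GENCODE vM21 transcript and with a length that is no multiple of 3, was included in ESC of some lines. Its PSI was 31.2 and 21.3% in Puf60_pEx5_HOM, 9.60 and 27.5% in Puf60_pEx5_HET, 13.6 and 18.9% in Rbm38KO, and 0 and 0% in Puf60_mEx5_HOM ESC libraries, against 0 and 1.00% in WT ESC libraries, on 27 to 74 reads. It rose in Puf60_pEx5_HOM by 25.8 points (weighted limma adjusted p = 0.0469), whereas the differences of 18.0 points in Puf60_pEx5_HET (adjusted p = 0.881) and 15.7 points in Rbm38KO (adjusted p = 0.876) missed the threshold (limma). The call was lost with any of the 4 libraries left out (adjusted p = 0.0691 to 0.411), with 0.5 reads added (adjusted p = 0.0636), with no filter on mean PSI (adjusted p = 0.138) and with a replicate block (adjusted p = 0.0643, limma). The authors' deposited table marks it as significant at ESC in the 3 lines where it was included.

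The α exons of Mef2a also differed most in Puf60_pEx5_HOM, without a call. At ESC the downstream exon had 43.5 and 65.6% in Puf60_pEx5_HOM, against 29.7 and 37.8% in WT libraries, a difference of 20.8 points (weighted limma adjusted p = 0.0714). The upstream exon had 56.5 and 40% in Puf60_pEx5_HOM, against 65.8 and 67.2% in WT ESC libraries, a difference of -18.2 points (weighted limma adjusted p = 0.248). The ESC values rest on 33 to 68 reads per library, and the downstream difference was 31.9 points without Puf60_pEx5_HOM_ESC A but 9.72 points without Puf60_pEx5_HOM_ESC B. At EB8, on 98 to 162 reads, the upstream exon averaged 56.3 ± 6.0% in Puf60_pEx5_HOM and 68.3 ± 1.8% in WT (SD, n = 2 each). The downstream exon averaged 41.4 ± 0.94% and 33.1 ± 4.9% there (SD, n = 2 each), and neither was called. The authors' deposited table marks the upstream exon as significant against WT at EB8, in the column that marks 13% of all events. It also marks both exons between Puf60_mEx5_HOM and Puf60_pEx5_HOM at EB8.

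**Figure D4:**
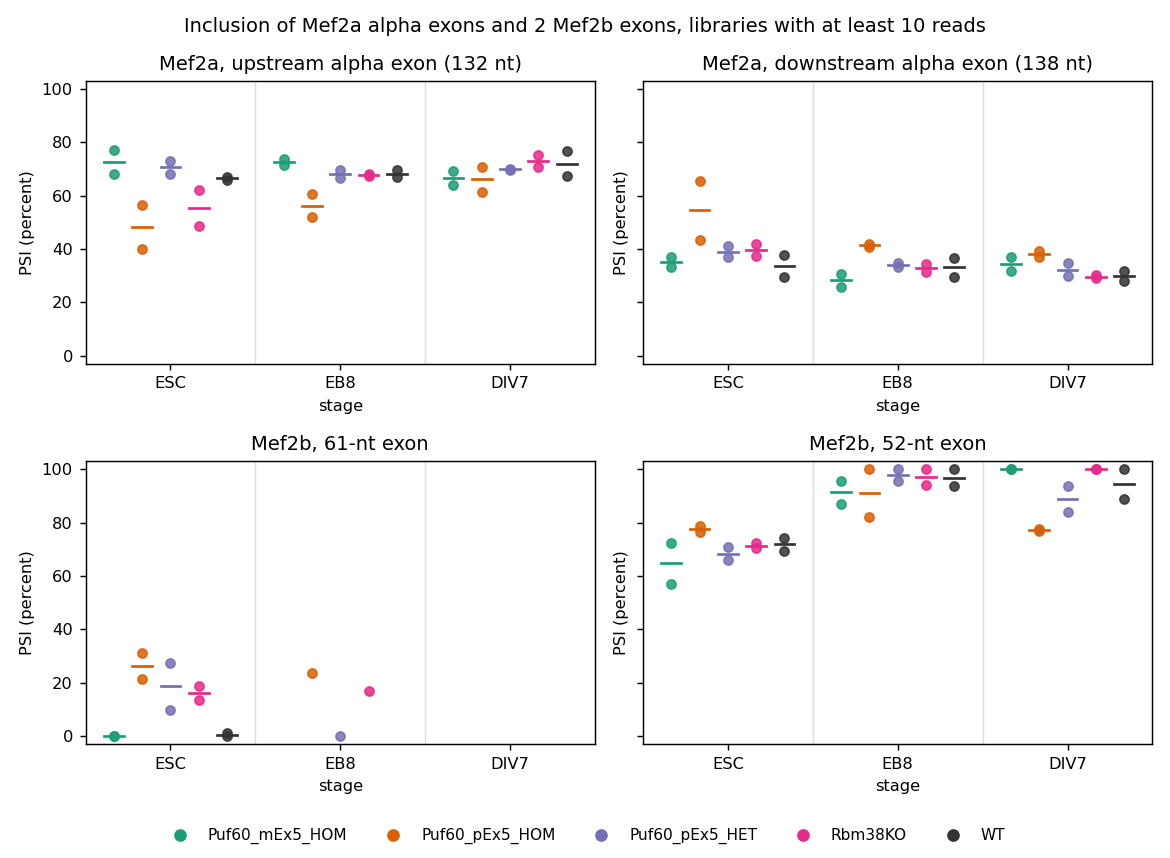
Percent spliced in (linear axis) of both Mef2a α exons and of the 61-nt and 52-nt Mef2b exons by stage, with 1 point per library that had at least 10 reads, a bar at the mean of groups with 2 such libraries and colours for the lines. The downstream α exon is highest in Puf60_pEx5_HOM ESC (43.5 and 65.6%), the upstream one has its lowest value there too (40%), and the 61-nt Mef2b exon is at 0 to 1.00% in Puf60_mEx5_HOM and WT ESC and at 9.60 to 31.2% in the other lines.

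The partners and targets of MEF2 were followed as lists in the WT steps, with the median of all genes at 0.03 for EB8 against ESC and 0.02 for DIV7 against EB8. Of all genes, 21.7% were called higher and 18.2% lower at the first step and 17.6% higher and 12.7% lower at the second. Calcium and kinase inputs to MEF2 (21 tested) had 10 genes higher and 0 lower in EB8 against ESC, with a median log2 difference of 0.98, and 9 higher and 4 lower in DIV7 against EB8, with a median of 0.77. Camk2a, a kinase that phosphorylates class IIa histone deacetylases, averaged 11.2 ± 0.33 CPM in WT EB8 and 0.841 ± 0.097 CPM in WT ESC (SD, n = 2 each). The calcineurin subunit gene Ppp3ca averaged 72.8 ± 3.4 CPM in WT EB8 and 19.5 ± 0.69 CPM in WT ESC, and the kinase gene Camk2b 391 ± 46 CPM in WT DIV7 and 49.6 ± 8.2 CPM in WT EB8 (SD, n = 2 each).

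Corepressors and coactivators (18 tested) had 2 higher and 2 lower at the first step, with a median of -0.11, and 2 higher and 3 lower at the second, with a median of 0.05. Hdac9, a class IIa deacetylase that binds MEF2, averaged 25.8 ± 0.86 CPM in WT EB8 and 1.22 ± 0.40 CPM in WT ESC, and Hdac5, of the same class, 624 ± 111 CPM in WT DIV7 and 268 ± 8.7 CPM in WT EB8 (SD, n = 2 each). The acetyltransferase gene Kat2b averaged 22.1 ± 0.042 CPM in WT EB8 and 81.9 ± 0.43 CPM in WT ESC (SD, n = 2 each).

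Neuronal MEF2 targets (20 tested) had 8 higher and 5 lower in EB8 against ESC, with a median of 0.53, and 14 higher and 1 lower in DIV7 against EB8, with a median of 1.49. Pcdh10, a protocadherin of synapses, averaged 68.2 ± 13 CPM in WT DIV7 and 4.13 ± 1.5 CPM in WT EB8, and Nr4a1, an activity-induced nuclear receptor gene, 2.77 ± 0.29 CPM in WT EB8 and 48.6 ± 1.6 CPM in WT ESC (SD, n = 2 each). Muscle targets (11 of 19 tested) had 0 higher and 7 lower at the first step, with a median of -1.44, and 1 higher and 1 lower at the second, with a median of 0.19. Myh6, a heart myosin gene, averaged 1.62 ± 0.37 CPM in WT EB8 and 20.0 ± 0.88 CPM in WT ESC (SD, n = 2 each). Summed CPM of 6 heart muscle markers, a list that holds Myh6 too, was 18.5 to 31.7 in ESC, 2.81 to 8.73 in EB8 and 1.28 to 3.28 in DIV7 libraries, and its part in the muscle target counts was not tested.

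Splicing regulators that are known for Mef2 or neuronal exons (26 tested) had 16 higher and 2 lower in EB8 against ESC, with a median of 1.72, and 4 higher and 2 lower in DIV7 against EB8, with a median of 0.32. Srrm4, which promotes neural microexons, averaged 38.2 ± 2.2 CPM in WT EB8 and 0.614 ± 0.18 CPM in WT ESC (SD, n = 2 each). Rbfox1, which promotes many neuronal and muscle exons, averaged 0.223 ± 0.031 CPM in WT ESC, 27 ± 2.7 CPM in WT EB8 and 131 ± 9.1 CPM in WT DIV7 (SD, n = 2 each). Celf3, a brain member of the CELF family, averaged 141 ± 0.28 CPM in WT EB8 and 0.342 ± 0.038 CPM in WT ESC (SD, n = 2 each). Rbm38, 1 of the 2 called lower at the second step, averaged 9.71 ± 1.8 CPM in WT DIV7 and 39.2 ± 3.0 CPM in WT EB8 (SD, n = 2 each).

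In the edited lines few genes of these lists were called. In Puf60_pEx5_HOM DIV7 3 of 20 neuronal targets were higher than in WT DIV7, where 0.854% of all genes were. Nr4a1 had 28.6 and 123 CPM in Puf60_pEx5_HOM, against 5.48 and 11.8 CPM in WT libraries (limma adjusted p = 0.000709). Fos had 45.0 and 181 CPM in Puf60_pEx5_HOM, against 4.56 and 35.1 CPM in WT libraries (limma adjusted p = 0.0193), and Klf2 averaged 12.2 ± 4.2 CPM in Puf60_pEx5_HOM and 1.43 ± 0.38 CPM in WT (SD, n = 2 each, limma adjusted p = 0.00319). For Nr4a1 and Fos the 2 libraries of a group lay far apart, but the groups did not overlap. Klf2 averaged 248 ± 29 CPM in WT ESC and 6.73 ± 2.6 CPM in WT EB8 (SD, n = 2 each). Nr4a1 was also higher in WT ESC than in WT EB8, at 48.6 and 2.77 CPM. Pluripotency markers summed to 169 to 246 CPM in these Puf60_pEx5_HOM DIV7 libraries and to 65.3 to 67.2 CPM in WT DIV7 libraries. Their part in the target count was not tested. In Puf60_mEx5_HOM DIV7 the ubiquitin ligase gene Ube3a fell to 8.65 and 6.92 CPM, against 42.6 and 43.9 CPM in WT libraries (limma adjusted p = 9.86e-12), where 0.215% of all genes were called lower. In Puf60_pEx5_HOM EB8 3 of 26 splicing regulators were lower than in WT EB8, where 1.44% of genes were, among them Rbfox1 at 9.31 ± 1.3 CPM in Puf60_pEx5_HOM and 27 ± 2.7 CPM in WT (SD, n = 2 each). Rbfox3, another of the 3, is also on the neuronal marker list, whose sum was 1010 to 1160 CPM in the same Puf60_pEx5_HOM libraries and 1590 to 1780 CPM in WT EB8 libraries, and the part of this was not tested.

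The genes whose group means followed each member most closely over the 15 groups are given as a description. They were Fam19a5, Wdr17, Epha7, Selenow and Cadm3 for Mef2a (Pearson r = 0.997 each). For Mef2b they were Nubp2 (0.991), Pdcd2l (0.989), Slc4a11, Ftl1 and Eif6 (0.988 each). For Mef2c they were Lrrc73 and Ptprn (0.992 each), Ndst3 (0.991), Pcdha1 and Arpp21 (0.99 each). For Mef2d r was lower, at 0.972 for Slc29a2, 0.96 for Ppm1a, 0.957 for Agpat5, 0.954 for Pi4k2a and 0.953 for Tmem120b.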

How the data were processed

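The members, lists and alternatives were chosen with earlier results of these data known. The authors deposited RPKM and log2 fold changes with p-values and FDR per group, a table with their TRUE or FALSE calls, and a vast-tools table whose library columns hold percent spliced in and quality strings with read numbers, per the file headers. Salmon 0.14.1 and mm10 are named in the submitters' processing notes. Whether counting used strand is not given in the sources used here.

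As RPKM had 1 value per group, exon-exon junction read counts were summed per gene from the deposited quality strings of intron rows and scaled to CPM by median-of-ratios factors. The 13929 genes that reached 1 CPM in 2 or more libraries were fitted as log2(CPM + 1) in limma 3.58.1 (R 4.3.3; trend, robust; 15 group means, 15 residual degrees of freedom). Sums include junctions that skip the β exons: this intron held 305, 658 and 159 reads in Mef2a over the 10 libraries of ESC, EB8 and DIV7, and 1367, 619 and 180 in Mef2d. PSI was fitted as log2 of inclusion over exclusion reads, each with 1 read added, weighted by counting error (over-dispersion 0.0184), for 37968 events with at least 10 reads and a mean PSI of 5 to 95. Both fits were tested on simulated data.

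Named genes are the 4 members, events of mean PSI 5 to 95 or called, up to 3 called genes per list with the largest WT changes, and the 5 most alike genes or exons. Genes named in edited lines were chosen after their values were seen. The authors' 15 group PSI columns and 1 call column of a stage with no sample were not used. The labels do not say what the letters A and B share. Same-letter deviations correlated between -0.26 and 0.62 within stages (median 0.3), so not every pair passed 0.1 and no block was used. No 2 libraries were identical (highest r 0.9977). The sequence of 1 α exon is not reported here.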

Additional observations from a re-analysis of the deposited data

Results flagged for a closer look

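The change between EB8 and DIV7 differed between Puf60_pEx5_HOM and WT cells for 2 members, by a test of the difference itself. For Mef2c the difference of the log2 steps was 0.99 (limma adjusted p = 0.0306), with 0.699 CPM in EB8 and 8.96 CPM in DIV7 of Puf60_pEx5_HOM, against 1.01 CPM in EB8 and 5.06 CPM in DIV7 of WT. It ran between 0.71 (limma adjusted p = 0.201, without WT_DIV7 A) and 1.26 (limma adjusted p = 0.00703, without WT_DIV7 B) with 1 library left out. For Mef2d it was 0.66 (limma adjusted p = 0.024), with 21.9 CPM in EB8 and 47.6 CPM in DIV7 of Puf60_pEx5_HOM, against 24.9 CPM in EB8 and 33.4 CPM in DIV7 of WT. It ran between 0.44 (limma adjusted p = 0.134, without Puf60_pEx5_HOM_DIV7 B) and 0.89 (limma adjusted p = 0.0032, without Puf60_pEx5_HOM_DIV7 A). The marker sums that differ between these lines at DIV7 stand in the text above, and their part was not tested.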

How the results depend on the processing

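Of 444 recomputed values of single genes and exons, 416 kept their side of the threshold, 21 lost a call, 7 gained one and 0 reversed. These values include every member gene and event tested in the WT steps, called or not. A value called in neither setting counted as kept, and a reversal was counted only where at least 1 setting gave a call. The 416 are thus no measure of how stable the calls were. Over both WT steps together, the counts of 2 genes and 6 exon calls stayed within 1.5 times. Within a step they moved more: in EB8 against ESC the genes were 1, but 2 under total scaling, which adds Mef2a, and the exons 3, but 1 to 2 with 1 library left out. In DIV7 against EB8 the exons were 3, but 2 with equal weights and 2 to 3 with 1 library left out. The count of members called in edited lines was 0, and 0 to 1 with 1 library left out. Member events called in edited lines were 2, but 1 with equal weights, with 0.5 reads added or with a replicate block, 0 with no filter on mean PSI, and 1 to 2 with 1 library left out. Members whose step differed from WT were 0, but 1 under quantile scaling and with a pseudocount of 0.5, and 0 to 1 with 1 library left out, in each case Mef2c in Puf60_pEx5_HOM. Events whose step differed were 0, and 0 to 1 with 1 library left out, without WT_DIV7 B, when the Mef2a β exon reached 23.6 points (limma adjusted p = 0.021). Where a group keeps 1 library, it is assumed to vary like the other groups. The cause of these moves was not tested. Samples share only a letter: deviations of same-letter pairs correlated above 0.1 in 19 of 30 pairs within a stage and 8 of 75 between stages, and the replicate block changed no other call. The block holds the same letter difference for every stage and cannot take up a difference confined to a stage. Its unchanged calls therefore leave such a difference unexamined. Leaving out junctions beside alternative regions, added after seeing the data, gave 0.81 and 0.79 for the Mef2a steps and -0.45 and 0.56 for the Mef2d steps, with no change of call. Without the filter on mean PSI 116 more member events entered, with 0 calls. Depth limits Mef2c before DIV7 (2 to 92 reads per library) and its β and γ events (10 to 33 reads at DIV7).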

Other observations

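At ESC the Mef2b level followed the replicate letter in every line: 9.56 to 11.9 CPM in the 5 A libraries and 14.4 to 21 CPM in the 5 B libraries, without overlap. The same letters did not order Mef2b at DIV7, at 2.76 to 3.75 CPM in A and 1.94 to 4.66 CPM in B libraries.

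A 307-nt exon of Mef2d, at chr3:88168038-88168344, had a PSI of 84.6 and 76.9% in Puf60_mEx5_HOM ESC libraries, against 95.3 and 89.9% in WT ESC libraries, a difference of -11.9 points (weighted limma adjusted p = 0.631). The authors' deposited table marks this exon as significant against WT at ESC in Puf60_mEx5_HOM and in Rbm38KO. At DIV7 it was at 95 to 100% in all 10 libraries.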
